A study of Mus musculus with 12 samples.

Results

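Common dendritic cell progenitors (CDPs) are bone marrow cells that give rise to dendritic cells (DCs), and 60 of the 22184 genes measured here were restricted to them by the rule that follows. A gene was taken as CDP-restricted when its mean log2 value was at least 6 in CDPs and at least 1.5 above the mean of each of 4 other populations: the pre-CD4 and pre-CD8 DC progenitors of bone marrow and the CD172a and CD24 DCs of spleen. These values chose the genes, so CDP levels and the distance from CDPs to other populations are descriptions without a test. On the log2 scale a difference of 1 is a factor of 2. "Restricted" has only the meaning of this rule, because no detection calls were used and 47 of the 60 genes had at least 1 other population above the median gene level of that population.

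All mice were Zbtb46GFP/+, with GFP in place at 1 Zbtb46 allele to report on this classical DC factor, on the C57Bl/6 background (given as N8), and were studied at steady state without treatment. Cells of 8 to 10 littermates were sorted to a purity above 95%; age is not given in the labels used here. Nothing states if the arrays within a group stand for different animals, pools or sorts, so p-values measure the spread between arrays, which may be technical. CDPs (n = 3 arrays) were lineage-negative, CD117 intermediate, CD135+, CD115+, CD11c- and MHC II-. Pre-CD8 cells (n = 2) were CD117 intermediate, CD135+, CD11c+, Siglec H- and MHC II intermediate, and pre-CD4 cells (n = 2) CD117 low, CD135+, CD115+, CD11c+ and MHC II-. In spleen, CD172a DCs (n = 2) were CD11c+, MHC II+ and CD172a+, and CD24 DCs (n = 3) were CD11c+, CD24+ and CD172a-, with MHC II given as negative in the label.

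CDPs descend from multipotent and myeloid progenitors and lose the potential for other lineages as they pass through pre-DC stages into classical DCs. Progenitors of the myeloid branch begin to transcribe genes of neutrophil primary (azurophil) granules early, and carry surface proteins and transcription factors shared with earlier stem and progenitor cells, such as CD34, MYB and ERG. Growth factor signals through FLT3 and the CSF1 receptor maintain them, while classical DC genes such as Zbtb46 and those of MHC class II are switched on later.

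The CDP arrays carried transcripts of their gate and few of classical DCs. Csf1r, which encodes CD115, had its highest mean in CDPs (9.14 ± 0.13, SD, n = 3), and Itgax, which encodes CD11c, was at 6.07 ± 0.20 in CDPs against 9.91 ± 0.31 in CD24 DCs (n = 3). Kit, which encodes CD117, was at 8.24 ± 0.25 in CDPs and 9.70 ± 0.15 (n = 2) in CD172a DCs, whose gate does not name CD117. CD24 DCs differed from CD172a DCs in Kit by only 0.01 (SE 0.21, limma, adjusted p = 0.992), so both spleen means were above that of CDPs. Kit was higher in pre-CD8 (gated CD117 intermediate) than in pre-CD4 (gated CD117 low) by 3.09 (SE 0.23, limma, adjusted p = 1.92e-05). Over 19 measured classical DC genes the mean per array was 5.21 to 5.27 in CDPs and 9.10 to 9.14 in CD24 DCs. Zbtb46 itself stood at 5.02, 5.23 and 5.15 on the CDP arrays.

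Some arrays carried more neutrophil RNA than others of their group. The mean over 17 genes of secondary granules and mature neutrophils was 5.05, 6.33 and 6.22 on CDP arrays 1, 2 and 3, and 5.14 and 7.56 on pre-CD8 arrays 1 and 2. Pre-CD4 arrays gave 5.18 and 5.87, CD172a arrays 5.88 and 4.62, and CD24 arrays 4.62, 5.76 and 4.86. Ngp, a neutrophil granule protein gene, was at 10.87 on pre-CD8 array 2 and 5.12 on pre-CD8 array 1, and Camp, the cathelicidin gene, at 10.81 and 5.99. None of these 17 genes met the rule for CDP restriction, and 9 of them had their highest mean in pre-CD8 cells. In sorted bulk samples, more cells of a type and more RNA per cell cannot be told apart. Lists for erythroid, megakaryocyte, B, T and NK cells had array means of 4.24 to 4.94 in CDPs, with Klf1 at 4.79 ± 0.24, Pf4 at 4.27 ± 0.50 and Cd3e at 4.18 ± 0.27 (SD, n = 3).

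The 60 genes covered 11 granule and secreted proteins, 16 surface receptors and adhesion molecules, 7 nuclear regulators, 9 genes of cell cycle, survival and signalling, 12 metabolic and other enzymes and 5 others. CDP means ran from 6.06 to 12.33. The distance from the CDP mean to the next-highest population, called the margin here, ran from 1.51 to 3.84 with a median of 1.88, and 23 genes had a margin of at least 2. The next-highest population was pre-CD4 for 26 genes, pre-CD8 for 23, CD172a for 7 and CD24 for 4. The lowest population was CD24 for 31 genes and CD172a for 18. For all 60 the lowest CDP array lay above every other array, against 7.6% of all genes, a property that the rule largely fixes. Just inside the limit were Tpi1, Hadh and Ddx1 with margins of 1.53, Ccnd2 with 1.52 and Tmem178 with 1.51. Just outside were Ppat (1.498), Mthfd1 (1.49), Ankrd28 (1.49), Bphl (1.47) and Nrg1 (1.47). Whichever single array was left out, 35 of the 60 genes met the rule, while 25 failed it at least once. Ccnd2 failed it on leaving out any of 5 arrays, the most of any gene. Without pre-CD4 array 2, Sox4, Bcl2, Cst7, Cd27, Mlkl and Igfbp4 were among the genes that failed it.

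**Figure D1:**
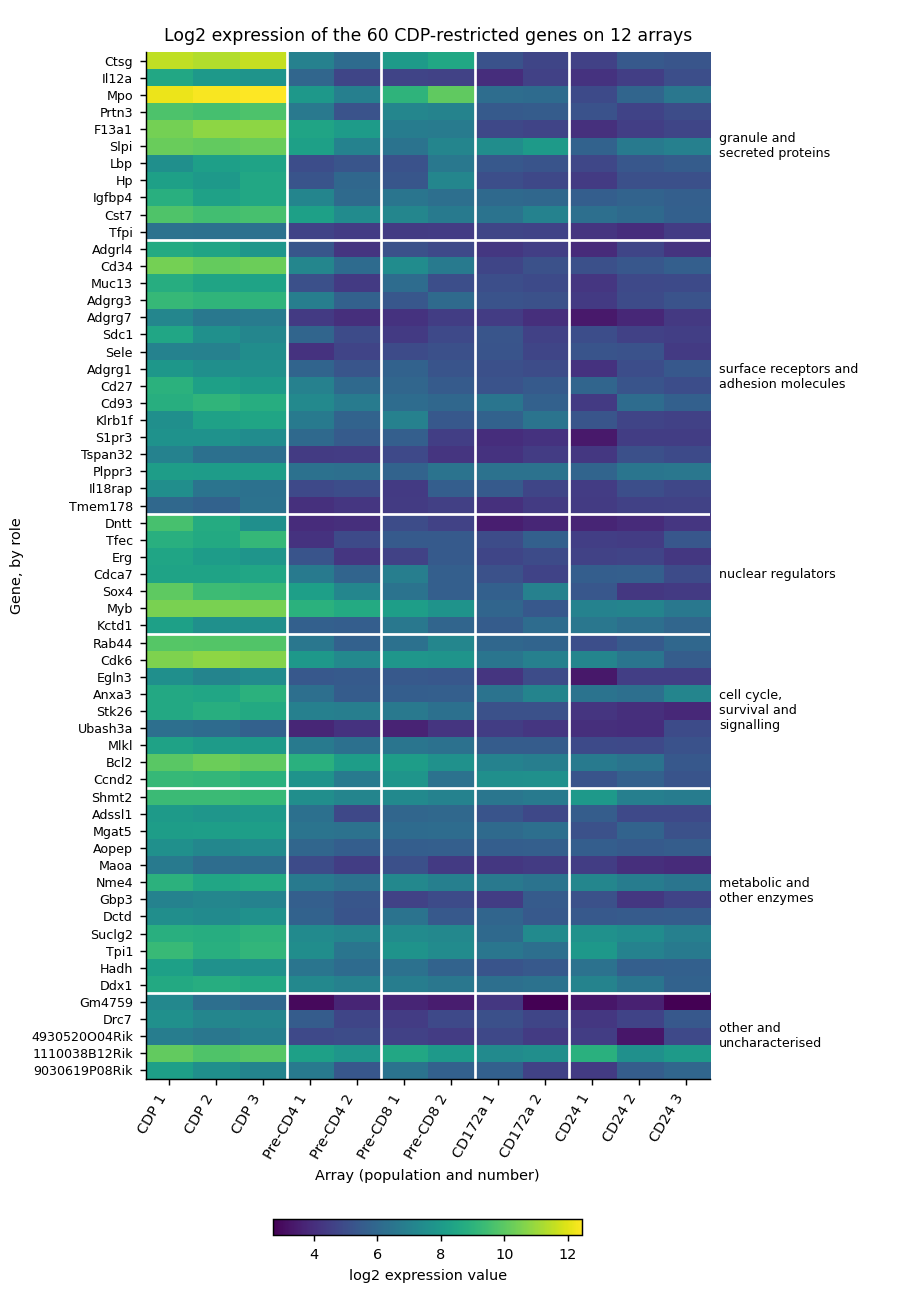
Log2 expression value (colour) of each of the 60 CDP-restricted genes (rows, grouped by role and ordered by margin within a role) on each of the 12 arrays (columns, with white lines between populations). The 3 CDP columns are brighter than all others in every row, as the rule requires of their mean, and Myb, Bcl2 and F13a1 stay brighter in marrow pre-DCs than in spleen DCs.

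Among granule and secreted proteins, the genes of 3 primary granule proteins stood far above the other populations. Mpo, which encodes myeloperoxidase, was at 12.16, 12.37 and 12.45 on the CDP arrays, 9.06 and 10.08 in pre-CD8, 7.91 and 6.93 in pre-CD4, 6.19 and 6.13 in CD172a DCs and 4.91, 5.89 and 6.57 in CD24 DCs. Ctsg, which encodes the serine protease cathepsin G, was at 11.51, 11.31 and 11.59 in CDPs, 8.04 and 8.51 in pre-CD8, 6.99 and 6.11 in pre-CD4, 5.19 and 4.75 in CD172a and 4.62, 5.42 and 5.28 in CD24 DCs. Prtn3, which encodes proteinase 3, was at 9.75, 9.57 and 9.74 in CDPs, 7.18 and 7.07 in pre-CD8, 6.65 and 5.21 in pre-CD4, 5.49 and 5.57 in CD172a and 5.19, 4.69 and 4.99 in CD24 DCs. All 3 genes followed the same order of marrow means, CDP above pre-CD8 above pre-CD4. Between pre-CD8 and pre-CD4 only Ctsg was called in the limma fit (adjusted p = 0.0297), with Mpo at 0.0622 and Prtn3 at 0.264. The mature neutrophil list was at 5.05, 6.33 and 6.22 on CDP arrays 1, 2 and 3. The mean of 13 other genes on a primary granule list, none of them CDP-restricted, was 7.77, 7.81 and 8.05 on CDP arrays 1, 2 and 3. What part neutrophil RNA had in these values was not tested.

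Promoters of 4 of the granule and secreted genes and of the transcription factor gene Tfec are shown because all 5 hold the letters AGGAAGT, a core motif of PU.1-type ETS factors, which act in myeloid and DC progenitors. They were picked after the matches were seen. The 250 bases before the annotated start are given 5′ to 3′ on the gene's strand, from RefSeq on GRCm38.p6, with motif matches in capitals. In Mpo, Prtn3 and Cst7 the capitals mark that motif alone. In Ctsg they also mark C/EBP-type (TTGCNNA) and MYB-type (CAACTG) matches, here read on either strand, and in Tfec also a RUNX-type (TGTGGTT) match on the opposite strand.
Mpo (chr11:87793534-87793783, plus strand): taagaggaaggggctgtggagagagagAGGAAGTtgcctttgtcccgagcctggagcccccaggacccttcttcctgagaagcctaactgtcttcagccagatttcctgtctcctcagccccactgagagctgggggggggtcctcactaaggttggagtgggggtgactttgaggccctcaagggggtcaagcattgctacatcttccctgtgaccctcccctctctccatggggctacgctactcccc
Ctsg (chr14:56102575-56102824, minus strand): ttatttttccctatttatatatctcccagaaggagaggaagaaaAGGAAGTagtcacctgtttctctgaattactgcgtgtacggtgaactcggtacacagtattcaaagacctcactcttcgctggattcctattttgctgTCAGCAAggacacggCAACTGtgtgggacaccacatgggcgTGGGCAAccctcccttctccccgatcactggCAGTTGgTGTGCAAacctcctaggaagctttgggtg
Prtn3 (chr10:79879417-79879666, plus strand): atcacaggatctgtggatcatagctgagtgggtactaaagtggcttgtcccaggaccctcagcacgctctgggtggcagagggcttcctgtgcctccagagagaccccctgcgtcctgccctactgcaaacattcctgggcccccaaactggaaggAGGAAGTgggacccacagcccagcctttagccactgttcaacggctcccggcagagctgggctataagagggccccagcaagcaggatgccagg
Cst7 (chr2:150570165-150570414, plus strand): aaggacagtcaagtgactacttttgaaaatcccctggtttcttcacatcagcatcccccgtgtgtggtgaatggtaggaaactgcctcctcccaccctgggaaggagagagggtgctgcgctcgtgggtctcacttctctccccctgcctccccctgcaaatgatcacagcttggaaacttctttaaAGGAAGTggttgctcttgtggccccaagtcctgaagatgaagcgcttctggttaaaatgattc
Tfec (chr6:16898442-16898691, minus strand): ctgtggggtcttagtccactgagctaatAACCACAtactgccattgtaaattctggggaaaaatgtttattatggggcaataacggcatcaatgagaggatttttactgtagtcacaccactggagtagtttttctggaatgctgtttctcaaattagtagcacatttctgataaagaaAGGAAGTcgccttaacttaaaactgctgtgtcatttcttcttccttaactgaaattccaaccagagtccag
The PU.1-type match began 223 bases before the start in Mpo, 206 in Ctsg, 94 in Prtn3, 71 in Tfec and 63 in Cst7. Ctsg had C/EBP-type matches from 108, 67 and 29 bases before the start and MYB-type matches from 93 and 36.

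Over the 51 CDP-restricted genes with a promoter in the table (63 windows, since 10 genes had several starts), AGGAAGT on either strand was in 10 windows, or 15.9%, against 7.69% of 32851 windows of all genes. The other 5 genes with it were Il18rap, Tfpi, Klrb1f, Ddx1 and F13a1. MYB-type matches (AACNGTT or CAACTG) were in 19.0% of member windows and 13.8% of all, and C/EBP-type matches in 36.5% and 32.8%. For RUNX-type letters the shares were 4.76% and 4.40%, for GATA-type letters (AGATAA) 9.52% and 9.99%, for the E-box (CANNTG, which includes CAACTG) 71.4% and 66.2%, and for the TATA box (TATAAA) 14.3% and 12.4%. A match is a match of letters only, and the shares were not tested.

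The remaining granule and secreted genes differed in where expression was next-highest. F13a1, which encodes the A chain of coagulation factor XIII and is a monocyte-lineage gene, was at 10.41, 10.82 and 10.81 in CDPs, 8.40 and 8.04 in pre-CD4, 6.81 and 6.77 in pre-CD8, 4.81 and 4.71 in CD172a and 4.07, 4.51 and 4.76 in CD24 DCs. Cst7, which encodes cystatin F, an inhibitor of lysosomal cysteine proteases, was at 9.76, 9.51 and 9.63 in CDPs and next at 8.25 and 7.40 in pre-CD4. F13a1 and Cst7 thus had their higher pre-DC mean in pre-CD4, opposite to Mpo, Ctsg and Prtn3. Of these genes only F13a1 and Ctsg were called between pre-CD8 and pre-CD4, and Cst7 was not (-0.89, limma, adjusted p = 0.515). Of 18 measured monocyte and macrophage genes F13a1 alone was CDP-restricted, and the mean of the other 17 was 6.64 to 6.98 on CDP arrays and 7.31 to 7.61 on pre-CD4 arrays. Slpi, a secreted inhibitor of neutrophil serine proteases, was at 10.23, 10.12 and 10.23 in CDPs, with CD172a DCs next at 7.49 and 8.04. Il12a, the p35 subunit of interleukin-12, was at 8.55, 7.98 and 7.77 in CDPs and had its next-highest value in pre-CD4 at 5.93 and 4.73. Igfbp4, which binds insulin-like growth factors, and Tfpi, an inhibitor of tissue factor, had margins of 1.96 and 1.65.

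Hp and Lbp, the genes of haptoglobin and of the lipopolysaccharide-binding protein, had an uneven pre-CD8 group. Hp was at 8.23, 7.97 and 8.54 in CDPs, 5.34 and 7.20 in pre-CD8 arrays 1 and 2, and 5.26 and 5.98 in pre-CD4. Lbp was at 7.56, 8.20 and 8.36 in CDPs and at 5.18 and 6.60 in pre-CD8. Pre-CD8 array 2, where both were high, is the array with the mature neutrophil list at 7.56, and the part of neutrophil RNA in these values was not tested. Without pre-CD8 array 1 neither gene met the rule. Elane, the neutrophil elastase gene, was at 9.30, 9.64 and 10.52 in CDPs and at 7.53 and 9.71 in pre-CD8, and with a margin of 1.20 was not among the 60.

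**Figure D2:**
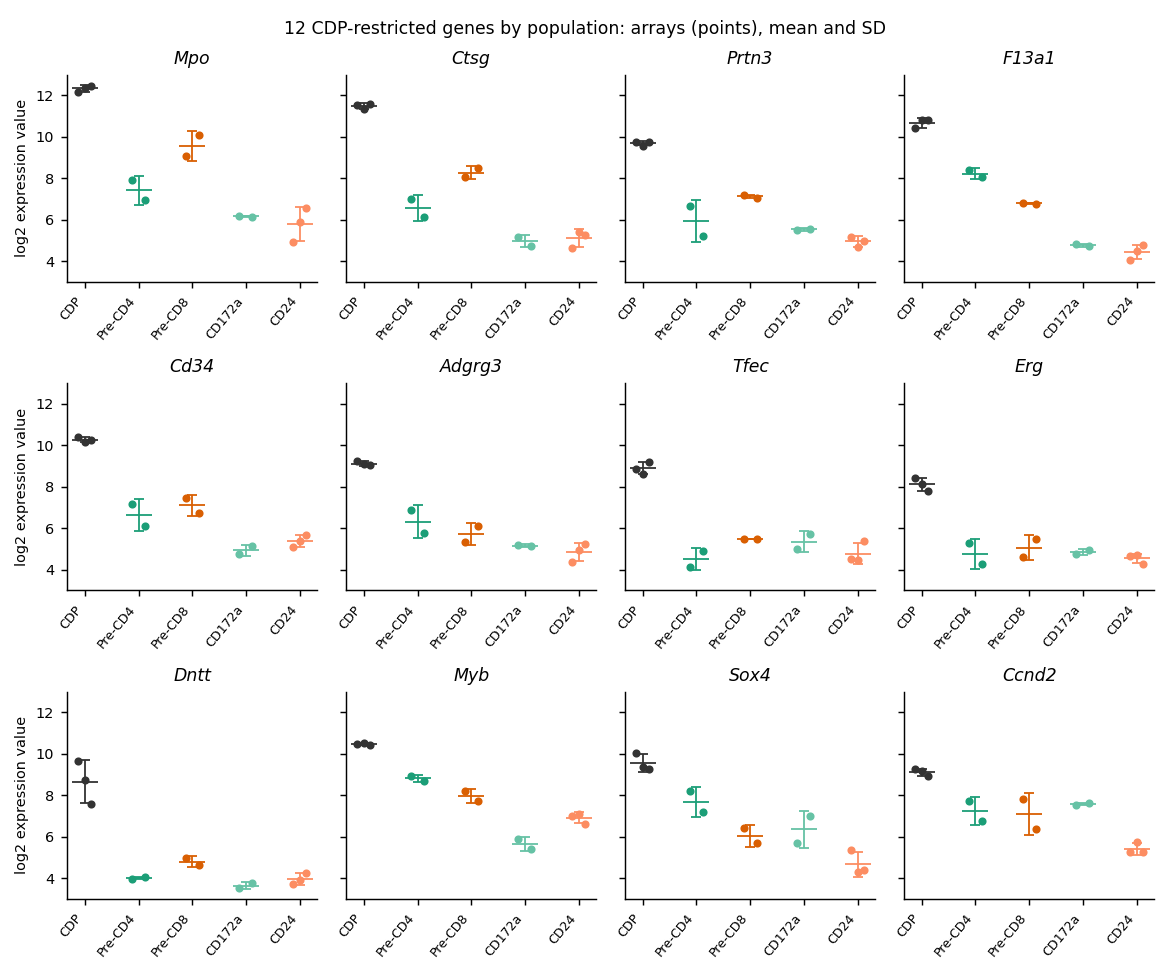
Log2 expression value (vertical axis) of 12 CDP-restricted genes in the 5 populations, with points for arrays, a horizontal line for the mean and bars for ± 1 SD (n = 3 for CDP and CD24, n = 2 for the others). Mpo, Ctsg and Prtn3 were next-highest in pre-CD8, F13a1, Myb and Sox4 in pre-CD4, and Dntt spread from 7.57 to 9.64 within the CDP arrays.

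Of 18 measured genes on the primary granule list, 5 were CDP-restricted (Mpo, Ctsg, Prtn3, Cst7 and Hp). In all, 11 had their highest mean in CDPs, against 21.0% of all genes. The list is broader than its name, as it also holds genes such as Gfi1, Cebpe, Calr, Igsf6 and Hp. This and the other gene lists were chosen with earlier results of these data known, so their counts are descriptions only. Beyond the 5, Serpinb1a (1.38), Elane (1.20) and Ms4a3 (1.08) had the largest margins. Prss57, an elastase relative, was at 7.27 ± 0.29 in CDPs (SD, n = 3) and 7.09 ± 0.23 in pre-CD8 (n = 2), closer than the spread between arrays. Gfi1 and Cebpe, whose products direct granulocyte differentiation, were at 5.28 ± 0.10 and 4.90 ± 0.14 in CDPs (n = 3), near the median gene level of 5.09. For the 13 genes of the primary granule list outside the 60, the array means were 7.77 to 8.05 in CDPs and 7.23 to 7.88 in pre-CD8. They were 6.87 to 6.88 in pre-CD4 and 6.76 to 7.21 in spleen DCs.

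Surface receptors and adhesion molecules formed the largest role group, with 6 of its 16 genes on the list of progenitor surface genes. Cd34, a sialomucin of stem and progenitor cells, was at 10.41, 10.16 and 10.26 in CDPs, 7.46 and 6.75 in pre-CD8, 7.19 and 6.11 in pre-CD4, 4.75 and 5.12 in CD172a and 5.11, 5.38 and 5.68 in CD24 DCs. CDPs stood apart from every other array, and both pre-DC groups lay above both spleen groups. Muc13, a transmembrane mucin found on progenitors, was at 8.78, 8.42 and 8.36 in CDPs and next at 6.17 and 5.04 in pre-CD8. Cd27, a TNF receptor family member, was at 8.95, 8.26 and 8.01 in CDPs and next at 6.98 and 6.04 in pre-CD4. Cd93, a C-type lectin-like receptor of early hematopoietic cells, was at 8.81, 9.10 and 8.79 in CDPs and next at 7.28 and 6.78 in pre-CD4. Of 24 measured progenitor surface genes 6 were CDP-restricted and 9 were highest in CDPs, against 21.0% of all genes. Another 7 were highest in CD24 and 4 in CD172a DCs. This list too was chosen with earlier results of these data known. The median margin of the list was -0.40, and the 18 genes outside the 60 had array means of 6.65 to 6.68 in CDPs and 6.76 to 6.93 in CD172a DCs. Flt3, whose product is the CD135 of the gate, was at 9.52 ± 0.26 in CDPs (SD, n = 3) and at 9.25 to 10.11 in the means of the other groups.

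Adhesion G protein-coupled receptors, which pair a long extracellular part with a multi-pass membrane part, were 4 of the 16 surface genes. Adgrl4 was at 8.66, 8.39 and 7.83 in CDPs, and no other array exceeded the 5.34 of pre-CD4 array 1. Adgrg3 was at 9.24, 9.09 and 9.03 in CDPs and next at 6.88 and 5.75 in pre-CD4. Adgrg1 was at 7.88, 7.56 and 7.57 in CDPs and next at 5.87 and 5.27 in pre-CD4, and Adgrg7 at 7.18, 6.61 and 6.75 in CDPs with no other group mean above 4.30. None of the 4 was called between the pre-DC populations or between the spleen populations (adjusted p of 0.6 to 1 in the limma fit).

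The other surface genes had margins of 1.51 to 2.31. S1pr3, a receptor for sphingosine 1-phosphate, was at 7.68, 7.67 and 7.47 in CDPs, 6.06 and 5.497 in pre-CD4, 5.66 and 4.51 in pre-CD8, and 4.01 and 4.16 in CD172a DCs. Sele, which encodes E-selectin and is best known from endothelium, was at 7.02, 6.999 and 7.49 in CDPs with a highest value elsewhere of 5.24. Sdc1, which encodes syndecan-1, was at 8.47, 7.60 and 7.18 in CDPs and next at 5.91 and 4.96 in pre-CD4. The remaining genes of this role, Klrb1f, Tspan32, Plppr3, Il18rap and Tmem178, had margins of 1.51 to 1.86. Klrb1f belongs to a family of near-identical lectin genes, whose copies an array probe set may not tell apart.

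Nuclear regulators included the largest margin. Dntt, which encodes the terminal transferase of lymphoid progenitors, was at 9.64, 8.72 and 7.57 on CDP arrays 1, 2 and 3, 4.98 and 4.63 in pre-CD8, 3.97 and 4.04 in pre-CD4, 3.53 and 3.76 in CD172a and 3.71, 3.91 and 4.25 in CD24 DCs. Its CDP arrays did not overlap with any other array, yet their SD of 1.04 was the largest among the 60 genes, whose median was 0.19. Tfec, a factor of the MiT family, was at 8.85, 8.62 and 9.20 in CDPs and no higher than 5.71 elsewhere. Erg, an ETS factor of stem cells, was at 8.44, 8.11 and 7.78 in CDPs and no higher than 5.48 elsewhere. Tfec and Erg therefore had no group outside CDPs with a mean above 5.47.

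Myb and Sox4 fell off by degrees. Myb, a factor needed for progenitor proliferation, was at 10.48, 10.50 and 10.45 in CDPs, 8.94 and 8.69 in pre-CD4, 8.19 and 7.70 in pre-CD8, 7.02, 7.10 and 6.62 in CD24 and 5.90 and 5.40 in CD172a DCs. No group overlapped with another, though pre-CD8 against pre-CD4 was not called (limma, adjusted p = 0.252). Sox4, an HMG-box factor of progenitors, was at 10.04, 9.38 and 9.26 in CDPs, 8.20 and 7.17 in pre-CD4, 6.43 and 5.68 in pre-CD8, 5.71 and 6.99 in CD172a and 5.36, 4.28 and 4.39 in CD24 DCs. Cdca7, a chromatin regulator and MYC target, was at 8.38, 8.36 and 8.47 in CDPs, with means of 6.29 in pre-CD4 and 6.28 in pre-CD8. Kctd1 had a margin of 1.55.

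Of 33 measured progenitor transcription factor genes, the 4 named (Tfec, Erg, Sox4 and Myb) were CDP-restricted. In all, 18 were highest in CDPs, against 21.0% of all genes. Because the list was chosen with earlier results of these data known, these counts only describe it. The next margins were 1.03 for Nfe2, 1.00 for Meis1 and 0.94 for Hoxa9. Cebpa, a factor of myeloid progenitors, was at 7.06 ± 0.15 in CDPs (SD, n = 3) and 7.20 ± 0.09 in pre-CD4 (n = 2), and Runx1 was at 8.57 ± 0.06 and 8.64 ± 0.01, so neither set CDPs apart from pre-CD4 beyond the spread. Gata1 and Gata2, factors of the erythroid, megakaryocyte and mast cell branches, were at 4.36 ± 0.08 and 4.75 ± 0.15 in CDPs. Of 18 measured lymphoid-primed genes Dntt alone was CDP-restricted, and Il7r, the interleukin-7 receptor gene, also varied within CDPs, at 6.72, 6.22 and 4.96 on arrays 1, 2 and 3.

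Genes of cell cycle, survival and signalling came next. Cdk6, a G1 cyclin-dependent kinase, was at 10.55, 10.80 and 10.64 in CDPs, 7.92 and 7.29 in pre-CD4, 7.83 and 7.74 in pre-CD8, 6.499 and 6.97 in CD172a and 7.16, 6.52 and 5.61 in CD24 DCs. Ccnd2, which encodes its partner cyclin D2, was at 9.26, 9.16 and 8.92 in CDPs, 7.71 and 6.75 in pre-CD4, 7.80 and 6.39 in pre-CD8, 7.55 and 7.62 in CD172a and 5.26, 5.76 and 5.25 in CD24 DCs. Both were clear of the other arrays in CDPs, while only Ccnd2 separated the spleen groups. Bcl2, an inhibitor of apoptosis, was at 9.98, 10.28 and 10.08 in CDPs, 8.89 and 8.16 in pre-CD4, 8.15 and 7.65 in pre-CD8, 7.04 and 6.90 in CD172a and 6.74, 6.42 and 5.40 in CD24 DCs. Its values stepped down from CDPs through pre-DCs to spleen without overlap between these stages.

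Mlkl, the effector of necroptosis, was at 8.32, 8.05 and 8.04 in CDPs, 6.31 to 6.72 on the pre-DC arrays, 5.56 on both CD172a arrays and 4.86 to 5.18 on the CD24 arrays. Stk26, a Ste20-type kinase, was at 8.60, 8.82 and 8.62 in CDPs, 6.97 and 6.87 in pre-CD4, 6.67 and 6.32 in pre-CD8, 5.15 and 5.13 in CD172a and 4.23, 4.04 and 3.84 in CD24 DCs. In both genes the 3 stages formed separate ranges. CD24 lay below CD172a, a difference called for Stk26 (limma, adjusted p = 0.00401) but not for Mlkl (0.135). Egln3, a prolyl hydroxylase that acts on hypoxia-inducible factor, was at 7.58, 7.11 and 7.40 in CDPs and at 5.35 to 5.49 on all pre-DC arrays. Rab44, a large Rab GTPase, was at 9.90, 9.85 and 9.80 in CDPs and no higher than 7.19 elsewhere. Anxa3, a calcium-dependent membrane-binding protein gene, was at 8.58, 8.46 and 8.94 in CDPs, 5.53 to 6.29 on pre-DC arrays and 6.26 to 7.16 on spleen arrays, so that spleen means (6.76 and 6.61) lay above pre-DC means (5.91 and 5.64). Ubash3a, a regulator of lymphocyte receptor signalling, had CDP values of 6.29, 6.12 and 5.76.

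Genes of proliferation as such were not CDP-restricted. None of 19 measured genes of DNA replication and mitosis was among the 60, and 11 had their highest mean in pre-CD4 and 8 in CDPs. Their mean per array was 9.30 to 9.36 in CDPs, 9.30 to 9.34 in pre-CD4 and 8.97 to 9.10 in pre-CD8. Of 19 ribosome biogenesis genes, 17 were highest in CDPs but none reached the margin. Cad (1.25) and Gnl3 (1.20) came closest.

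The 12 metabolic and other enzymes had margins of 1.53 to 1.98. Shmt2, the mitochondrial serine hydroxymethyltransferase of folate metabolism, was at 9.34, 9.35 and 9.24 in CDPs, 7.52 and 7.14 in pre-CD4, 7.32 and 7.02 in pre-CD8, 6.56 and 6.67 in CD172a and 7.93, 6.91 and 6.80 in CD24 DCs. Mgat5, a Golgi enzyme that branches N-glycans, was at 8.15, 8.19 and 8.16 in CDPs, 6.46 and 6.40 in pre-CD4, 6.13 and 6.18 in pre-CD8, 6.10 and 6.26 in CD172a and 5.12, 5.83 and 5.14 in CD24 DCs. Adssl1, a muscle-type enzyme of AMP synthesis, was at 8.04, 7.82 and 7.94 in CDPs, with pre-CD4 arrays apart at 6.33 and 4.82. Nme4, Suclg2, Hadh, Dctd, Tpi1, Ddx1, Aopep, Gbp3 and Maoa made up the rest. Many lay close to the limit: leaving out 1 array removed Tpi1, Nme4, Ddx1, Hadh, Suclg2, Dctd, Aopep, Gbp3 or Maoa, depending on the array. Tpi1 (glycolysis) and Gbp3 (guanylate-binding proteins) have near-identical copies in the mouse genome that probe sets may not separate.

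Of the 5 other genes, Drc7 (dynein regulation) was at 7.59, 7.17 and 7.14 in CDPs and Gm4759 at 7.26, 6.27 and 5.97. Gm4759 is an uncharacterised locus, as are 1110038B12Rik, 9030619P08Rik and 4930520O04Rik. 9030619P08Rik had the smallest gap between the lowest CDP array (7.10) and the highest other array (6.73, pre-CD4 array 1).

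Another probe set was measured for 5 of the 60 genes. Those of Myb (9.31 ± 0.18 in CDPs, SD, n = 3, margin 1.80) and Sox4 (8.86 ± 0.54, margin 1.93) met the rule as well, and the one of Bcl2 (7.72 ± 0.28) came close with 1.37. Those of Sdc1 (5.84 ± 0.09, margin 0.28) and Suclg2 (8.06 ± 0.35, margin 0.46) did not, so the restriction of Sdc1 and Suclg2 rests on 1 probe set each.

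In the gene order of the RefSeq annotation, 56 of the 60 genes were listed as coding genes, and 5 of them sat in 2 clusters. Adgrg1, Adgrg3 and Drc7 follow each other on chromosome 8 with no other coding gene between. Their measured neighbours Kifc3 (4.75 ± 0.19 in CDPs, SD, n = 3), Ccdc102a (5.14 ± 0.26) and Polr2c (6.92 ± 0.24) had margins below 0. Plppr3, a phospholipid phosphatase-related membrane protein gene, and Prtn3 are adjacent on chromosome 10, followed by Elane. Plppr3 was flat outside CDPs, with 8.12, 8.09 and 8.14 in CDPs and group means of 6.12 to 6.39 elsewhere. Prtn3 and Elane had higher means in pre-CD8 than in pre-CD4, though neither difference was called (limma, adjusted p = 0.264 and 0.135). Ptbp1 on the other side of Plppr3 had a margin of 0.45. Whether probe sets of adjacent genes share sequence was not checked.

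**Figure D3:**
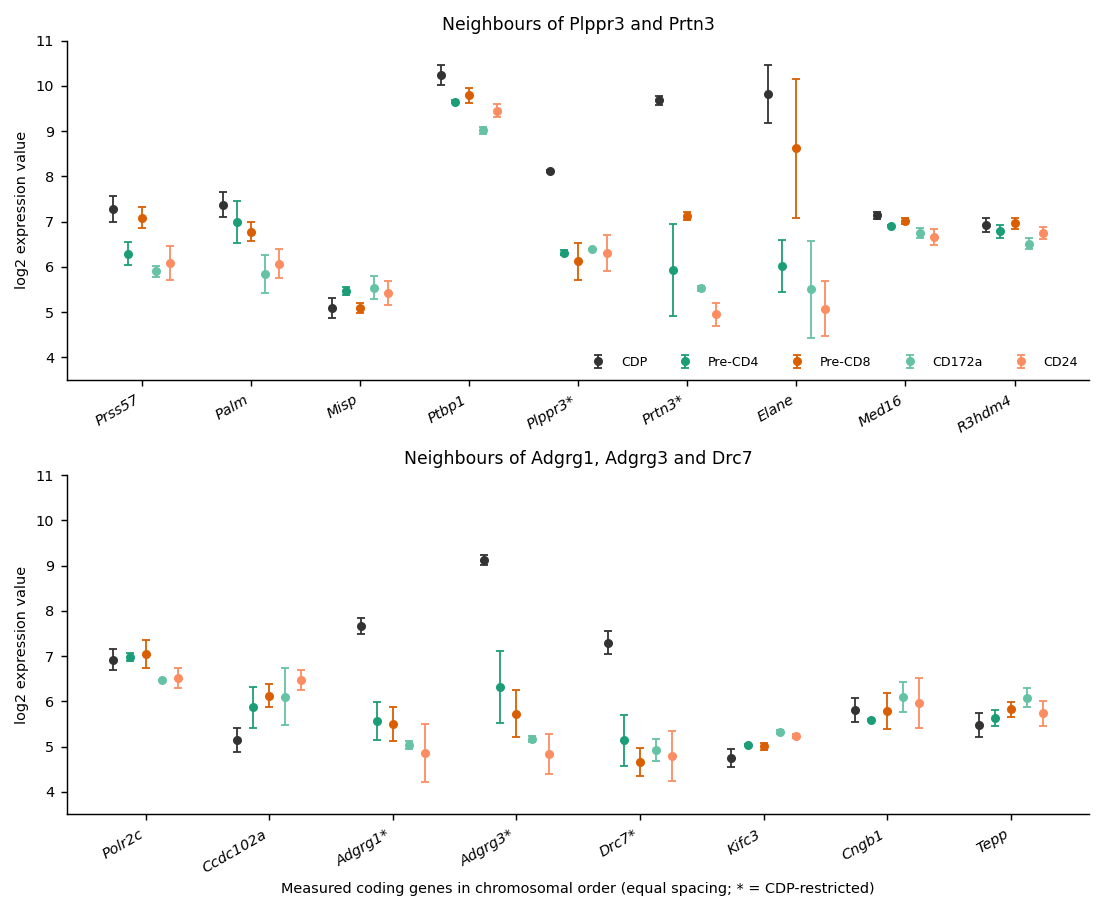
Mean log2 expression value ± 1 SD (vertical axis) of measured coding genes around Prtn3 (upper panel) and Adgrg3 (lower panel) in the 5 populations, in chromosomal order with equal spacing, with an asterisk for CDP-restricted genes. Plppr3 and Prtn3 above, and Adgrg1, Adgrg3 and Drc7 below, stand out in CDPs, while Elane spreads widely in pre-CD8 (8.62 ± 1.54, n = 2).

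How the 60 genes differed among the other 4 populations was tested with limma across all 22184 genes (Benjamini-Hochberg adjusted p, threshold 0.05), in comparisons that hold no CDP array. The rule had bounded each of these group means from above, but not the difference between them. Comparisons that hold the same arrays are not independent of each other. Counts for fits without single arrays stand without the share of all genes called in those fits. A change in such a count may therefore be shared by genes outside the 60.

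Comparing the mean of both spleen populations with the mean of both pre-DC populations, 20 of the 60 fell, against 10.8% of all genes, and 1 rose, against 6.89%, while 39 were not called. The median difference over the 60 was -0.54, against 0.08 over all genes and -0.29 over genes with a CDP mean of at least 6. F13a1 fell by 2.90 (SE 0.17, adjusted p = 2.09e-07), Mpo by 2.52 (SE 0.32, adjusted p = 9.46e-05), Ctsg by 2.37 (SE 0.22, adjusted p = 7.55e-06), Stk26 by 2.12 (SE 0.15, adjusted p = 5.75e-07) and Myb by 2.10 (SE 0.17, adjusted p = 2.17e-06). Smaller falls were those of Cd34 (-1.71), Bcl2 (-1.63), Prtn3 (-1.29) and Mlkl (-1.20). These 9 genes passed the threshold in each of the 18 alternative analyses, including those without pre-CD8 array 2, where Mpo differed by -2.26 and Ctsg by -2.25. By role, 7 of 11 granule and secreted genes fell, 6 of 9 genes of cell cycle, survival and signalling, 3 of 7 nuclear regulators, 3 of 16 surface genes and 1 of 12 enzymes. For comparison, all 19 genes of DNA replication and mitosis fell, by a median of 2.16.

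Other falls were less firm. Sox4 differed by -1.36 and was not called without pre-CD4 array 1 (adjusted p = 0.0687), pre-CD8 array 1 (0.0619) or CD172a array 1 (0.0703). The difference of Cdk6 was -1.11, not called without pre-CD4 array 1 (0.0576) or CD172a array 1 (0.0542), and that of Adgrg3 -1.02, not called without pre-CD4 array 1 (0.0657). Hp (-1.04) was not called on leaving out any of 7 arrays (adjusted p up to 0.129), among them pre-CD8 array 2, where its difference was -0.57 (adjusted p = 0.119). The 1 gene that rose, Anxa3 (0.91, SE 0.23, adjusted p = 0.0154), was not called without pre-CD4 array 2 (0.0714), pre-CD8 array 1 (0.0545) or CD172a array 2 (0.0732). Cdca7 (-1.13) was not called without pre-CD4 array 1 (0.0537), and Egln3 (-1.06) not without CD172a array 1 (0.0601). S1pr3 (-1.33) and Cst7 (-1.01) were called whichever single array was left out, but not without all arrays numbered 1 (-0.68, adjusted p = 0.0763, and -0.58, adjusted p = 0.146). Rab44 (-0.75), Igfbp4 (-0.64) and Mgat5 (-0.52) were not called on leaving out any of 8, 10 and 11 arrays, with adjusted p up to 0.195, 0.234 and 0.142. Some genes with large margins were not called in either direction, such as Tfec (0.08, adjusted p = 0.847) and Sele (0.24, adjusted p = 0.467).

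**Figure D4:**
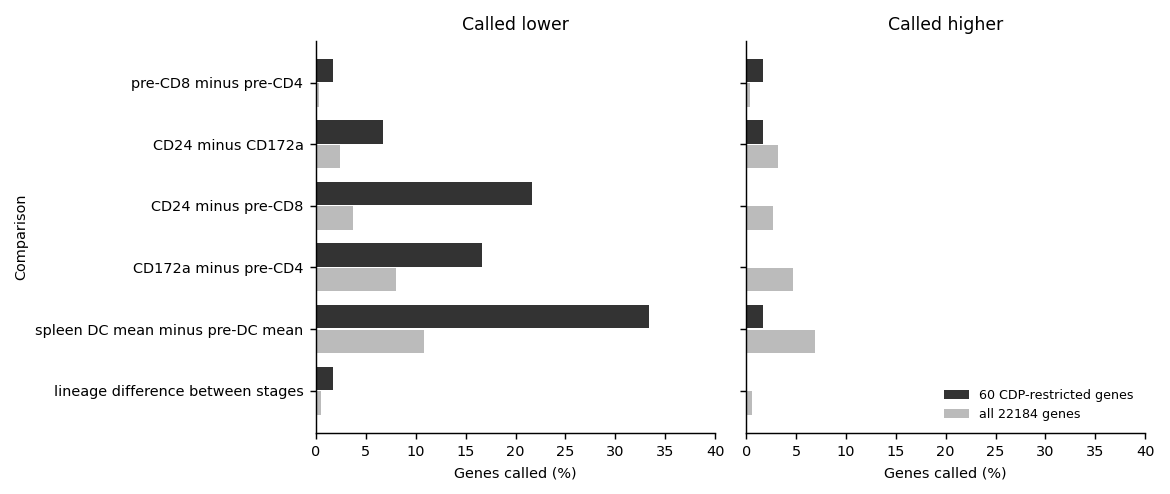
Share of genes called lower (left) and higher (right) at an adjusted p under 0.05 (horizontal axis, percent) in 6 comparisons without CDP arrays, for the 60 CDP-restricted genes (dark bars) and all 22184 genes (grey bars). In the comparison of spleen with pre-DC means the dark bar for lower genes reaches 33.3% and the grey bar 10.8%.

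Along the CD8 lineage, 13 of the 60 genes were lower in CD24 DCs than in pre-CD8 cells, against 3.66% of all genes, and none was higher, against 2.65%. The median difference was -0.64 over the 60, 0.05 over all genes and -0.21 over genes with a CDP mean of at least 6. Mpo fell by 3.78 (SE 0.43, adjusted p = 9.86e-05) and Ctsg by 3.16 (SE 0.30, adjusted p = 3.03e-05). Without pre-CD8 array 2 these differences were -3.27 and -2.93, and both were called (adjusted p = 0.00216 and 0.000638). Stk26 fell by 2.46 (adjusted p = 9.6e-06), F13a1 by 2.34 (3.89e-05), Prtn3 by 2.17 (0.00082) and Mlkl by 1.44 (0.000538), and these 6 genes were called in every alternative. Cd34 (-1.72) and Bcl2 (from 7.90 to 6.18) were not called without pre-CD8 array 1 (adjusted p = 0.0945 and 0.135). Ccnd2 (-1.67), also called, was not called without pre-CD8 array 1 (0.282) or CD24 array 3 (0.0516). Cdk6, Egln3, Rab44 and Myb completed the 13, with differences of -1.36, -1.27, -1.27 and -1.03. Cdk6 and Egln3 were not called on leaving out any of 6 and 7 arrays (adjusted p up to 0.256 and 0.27). Rab44 was not called without pre-CD8 array 2 (0.227) or CD24 array 1 (0.0564) or 2 (0.0742), and Myb not without pre-CD8 array 1 (0.267). Without pre-CD8 array 1, which leaves 1 array in that group with the spread taken from the others, 8 of the 60 were called. Of the 9 genes of cell cycle, survival and signalling, 7 were among the 13, and none of the 12 enzymes was.

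Along the CD4 lineage, 10 genes were lower in CD172a DCs than in pre-CD4 cells, against 8.02% of all genes, and none was higher, against 4.7%. The median difference was -0.49 over the 60 and 0.09 over all genes. Over genes with a CDP mean of at least 6 it was -0.35, so much of the shift was shared with them. F13a1 fell by 3.46 (SE 0.25, adjusted p = 2.36e-06), Myb by 3.16 (SE 0.25, adjusted p = 4.54e-06) and Stk26 by 1.78 (SE 0.21, adjusted p = 0.000122), and these 3 were called in every alternative. Cd34 (-1.71), S1pr3 (-1.70), Ctsg (-1.58), Bcl2 (-1.55), Cdca7 (-1.38), Cst7 (-1.08) and Mlkl (-0.96) were also called. None of these 7 was called without pre-CD4 array 1 (adjusted p = 0.0758 for Cd34 to 0.391 for Cst7). Without CD172a array 1, Ctsg alone of the 7 was called, with the others at 0.0575 (Cd34) to 0.314 (Cst7), and without CD172a array 2 S1pr3, Ctsg, Bcl2, Cdca7 and Mlkl were not called (0.0528 for Mlkl to 0.167 for Cdca7). Cst7 was also not called without CDP array 2 (0.0531) or 3 (0.0569) or CD24 array 2 (0.0547). This count moved the most when single arrays were left out, for example to 18 without CD24 array 1. Mpo differed by -1.26 between these groups and was not called (adjusted p = 0.101).

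Between the 2 pre-DC populations few of the genes differed. Ctsg was higher in pre-CD8 (1.72, SE 0.33, adjusted p = 0.0297) and F13a1 lower (-1.43, SE 0.25, adjusted p = 0.0174), so that 2 of 60 were called, against 0.703% of all genes (0.383% higher and 0.32% lower). Mpo (2.15, SE 0.47, adjusted p = 0.0622), Prtn3 (1.19, adjusted p = 0.264) and Sox4 (-1.63, adjusted p = 0.277) were not called. Each call depended on single arrays. Ctsg was not called without CDP array 3 (adjusted p = 0.0536), pre-CD4 array 2 (0.313), pre-CD8 array 1 (0.0546) or pre-CD8 array 2 (0.318), and F13a1 not without pre-CD4 array 1 (0.247) or 2 (0.0597) or pre-CD8 array 1 (0.0864) or 2 (0.158). The count was 0 without pre-CD4 array 2 or pre-CD8 array 2, and 1 without CDP array 3 or pre-CD8 array 1. The mature neutrophil list stood at 7.56 on pre-CD8 array 2 and 5.14 on pre-CD8 array 1, where Ctsg was at 8.51 and 8.04. Without pre-CD8 array 2 the difference of Ctsg was 1.49. The pDC list of 15 genes was at 7.47 to 7.55 on the pre-CD4 arrays and 6.22 to 6.23 on the pre-CD8 arrays, and its part in these differences was not tested.

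The 2 pre-CD4 arrays also differed from each other over these genes. Of the 60, 48 were higher on pre-CD4 array 1 than on array 2, by a median of 0.49 over the 60, against 50.5% of all genes and 58.1% of genes with a CDP mean of at least 6. For pre-CD8 the count was 37 (61.7%), against 48.6% of all genes and 61.1% of genes with a CDP mean of at least 6, and for CD172a it was 30 of 60, against 55.6% and 37.5%. What sets the arrays apart was not tested.

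Between the spleen populations, 5 of the 60 genes differed, against 5.59% of all genes (3.21% higher and 2.37% lower), which is near the background. Ccnd2 was lower in CD24 than in CD172a DCs by 2.16 (SE 0.37, adjusted p = 0.003), and was called in every alternative. Stk26 was lower (-1.10, SE 0.20, adjusted p = 0.00401), as were Sox4 (-1.68, SE 0.44, adjusted p = 0.0431) and Mgat5 (-0.82, SE 0.22, adjusted p = 0.049). Myb was higher in CD24 DCs (1.26, SE 0.23, adjusted p = 0.00492). Of these, Myb was not called without CD172a array 2 (adjusted p = 0.0731) and Sox4 not without that array (0.39), CDP array 2 (0.0599) or 3 (0.0589), or CD24 array 2 (0.134) or 3 (0.103). Mgat5 was not called on leaving out any of 11 arrays (adjusted p up to 0.242). The count was 3 without CDP array 2, CDP array 3 or CD172a array 2.

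Myb was the 1 gene of the 60 called for a change of the lineage difference between stages. That is 1.67%, against 1.03% of all genes (0.532% with a higher and 0.5% with a lower value in pre-DCs), which is near the background. Genes not called were not shown to be unchanged, as Mpo had a value of 2.52 (SE 0.63, adjusted p = 0.0928). For Myb, pre-CD8 minus pre-CD4 was -0.87, not called by itself (adjusted p = 0.252), and CD24 minus CD172a was 1.26. The difference between these differences was -2.13 (SE 0.34, adjusted p = 0.00808). No arrays of the groups overlapped in either pair. Without pre-CD4 array 1 the value was -2.003, and without the arrays numbered 1 it was -2.44. Myb was called in neither of these fits, which leave 1 array in at least 1 group. The count was 2 without CD24 array 3. Its other probe set ran the same way, at 7.505 in pre-CD4 against 6.77 in pre-CD8, and 5.02 in CD172a against 5.99 in CD24 DCs.

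**Figure D5:**
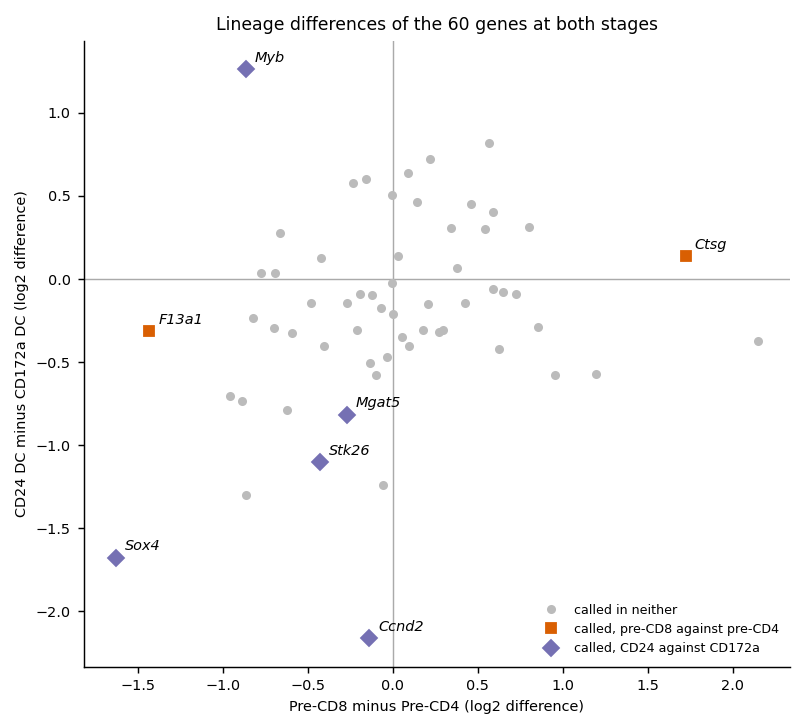
Log2 difference between pre-CD8 and pre-CD4 (horizontal axis) against that between CD24 and CD172a DCs (vertical axis), with a point for each of the 60 CDP-restricted genes and names on those called in either comparison. Myb lies at -0.87 and 1.26, in the upper left, Ctsg at 1.72 on the right and Ccnd2 at -2.16 at the bottom.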

How the data were processed

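RNA of 12 sorted samples in 5 groups was amplified with NuGEN Ovation Pico WTA, per the labels' protocols, and measured on Affymetrix whole-transcript arrays. The table deposited by the authors gives a log2 value for each of 35145 probe sets on each array. How background, summarization and normalization were handled, and the probe build, is not given in the sources used here. The values were used without further scaling, with array medians between 4.89 and 5.24 and r = 0.934 to 0.989 for array pairs within a group. Detection calls were not used, and precision is set by how few arrays there are.

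Only the 23525 probe sets with 1 gene symbol were used (1810 had several and 9810 none listed). Where a gene had several, as 1082 of 22184 did, its probe set with the largest mean was kept. The rule for members was then applied. Under R 4.3.3, the lmFit and eBayes functions of limma 3.58.1 fitted a mean for each group, leaving 7 residual degrees of freedom. P-values were two-sided and adjusted by Benjamini-Hochberg over all genes, and the steps were tested on simulated data. No contrast with CDPs was tested.

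Members and gene lists were chosen with earlier results of these data known. Genes were named by rule: the 20 largest margins, the fixed lists, called members, those next to the limit, and those with another probe set. Some further members are named for completeness, after their values were seen. Of the 60 members, 51 had a RefSeq promoter, whose 250 bases before the start were searched on both strands.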

Additional observations from a re-analysis of the deposited data

Results flagged for a closer look

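Myb, the progenitor transcription factor gene, had a lineage difference that differed between stages by the test of that difference. The value was -2.13 (limma, SE 0.34, adjusted p = 0.00808), from a difference of -0.87 between pre-CD8 and pre-CD4 (n = 2 and 2 arrays) and of 1.26 between CD24 and CD172a DCs (n = 3 and 2). Without pre-CD4 array 1, or without the arrays numbered 1, this difference was not called. The cause was not tested.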

How the results depend on the processing

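No call of a named gene changed direction in 936 alternative values over 18 alternatives, with 776 called and 160 not. Many of these values could not change direction. Leaving out an array outside the comparison, or changing only the genes or groups fitted, leaves the difference itself as it was. The number of members moved with its limits: 165 genes met a margin of at least 1, 23 a margin of at least 2, and 28 had the lowest CDP array 1.5 above every other array. Leaving out 1 array at a time gave 49 to 68 members, and 35 of the 60 met the rule each time. Over those fits the called members numbered 0 to 3 for pre-CD8 against pre-CD4, 3 to 5 for CD24 against CD172a, 8 to 14 for CD24 against pre-CD8, 3 to 18 for CD172a against pre-CD4, 14 to 23 for spleen against pre-DC means and 1 to 2 for the lineage difference between stages. With a margin of at least 2, the counts were 0 for CD24 against CD172a, 7 for CD24 against pre-CD8, 4 for CD172a against pre-CD4, 9 for spleen against pre-DC means and 0 for the lineage difference. With a margin of at least 1 they were 18, 28, 33, 58 and 3. Fitting only the groups compared gave 0 for pre-CD8 against pre-CD4, 3 for CD24 against CD172a and 8 for CD24 against pre-CD8. Leaving out the arrays numbered 1 left 1 array in some groups. The lineage difference of Myb was then -2.44 and was not called. The rule, applied to the remaining arrays as an alternative chosen after seeing the data, gave 63 members. The share of all genes called under each setting is not given beside these counts, so the changes need not be particular to these genes. The cause of these changes was not tested, beyond the fewer arrays or genes that the settings hold.

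The array numbers were used as a replicate block only as an alternative: deviations of same-numbered arrays correlated at r = 0.102 to 0.421 over 13 pairs without CD172a and -0.162 to 0.024 over 8 pairs with it. With the block, CD24 against CD172a gave 3 called members and the lineage difference 3. It ended the calls of Sox4 (-1.53, adjusted p = 0.0557) and Mgat5 (-0.76, adjusted p = 0.0675) between CD24 and CD172a, of Cdk6 between CD24 and pre-CD8 (-1.15, adjusted p = 0.0665) and of Mgat5 between spleen and pre-DC means (-0.49, adjusted p = 0.0531). Groups of 2 and 3 arrays limit every result, the background signal is unknown, and low values have no detection call.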
